A study of Mus musculus with 16 samples.

Results

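The fatty acid desaturases and elongases described here are Scd1, Scd2, Fads1, Fads2, Elovl1, Elovl2, Elovl3, Elovl5 and Elovl6. They were taken by the gene name that the array design gives each probe, which found all 9 genes, on 20 probes, among 37074 gene names on the array. All 9 genes passed the filter on dim probes, as did 18 of their 20 probes, and they were 9 of the 20403 genes tested. Liver RNA came from 16 male C57Bl/6 mice, 6 weeks old at the start and 10 weeks old by the labels, all conventional (Conv) animals without antibiotics fed a normal chow (NC) and fasted before they were killed. The 6 Conv + PBS mice received the vehicle, reduced PBS, although the labels call them not transplanted. The 5 Conv + LM mice received caecal content of lean mice (lean microbiota), and the 5 Conv + OM(HFD) mice received caecal content of mice made obese by a high-fat diet (obese microbiota). Each inoculum was pooled over donors, and the mice were group-housed, so that a cage and a group may coincide, and how the groups were spread over cages is not given in the sources used here. The groups are called PBS, LM and OM(HFD) below. The labels describe each sample as the liver of 1 mouse.

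Desaturases place a double bond in a fatty acid chain, and elongases carry out the first, rate-setting step of the cycle that lengthens the chain by a carbon pair. In the liver, Scd1 and Elovl6 act on the saturated product of fatty acid synthase and are classical targets of the insulin-responsive factor SREBP-1c (Srebf1) and of the glucose-responsive factor ChREBP (Mlxipl). Fads1, Fads2, Elovl2 and Elovl5 turn the essential dietary fatty acids into long polyunsaturated ones such as arachidonic acid and docosahexaenoic acid. Elovl1 and Elovl3 extend saturated and monounsaturated chains to great lengths, and Elovl3 is known to vary with the time of day in the liver of male mice.

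In the RefSeq annotation of GRCm38.p6, 5 of the 9 genes lie on chromosome 19. Fads2 and Fads1 lie near each other there, separated by 81373 bases, and so do Scd2 and Scd1, separated by 87585 bases with Scd4 between them, while Elovl3 lies apart from both pairs. The set of RefSeq promoter windows used here, from 250 bases before to 50 bases after a start site, held 5 of the 9 members. These were Elovl1, Elovl2, Elovl5, Elovl6 and Fads2. Those of Elovl5, Fads2 and Elovl6 are shown, because these genes belong to pairs whose correlation across mice is described below and have 1 window each, while Elovl1 and Elovl2 have 2. Each is written 5′ to 3′ along the gene. Capitals mark 3 motifs, read on either strand. One is the E-box with the letters CACGTG, which clock factors and SREBP are known to bind. Another is the CCAAT box, and the last is the nuclear receptor motif with the letters AGGTCA. No 2 of them overlap.
Elovl5, chr9:77917115-77917414, + strand: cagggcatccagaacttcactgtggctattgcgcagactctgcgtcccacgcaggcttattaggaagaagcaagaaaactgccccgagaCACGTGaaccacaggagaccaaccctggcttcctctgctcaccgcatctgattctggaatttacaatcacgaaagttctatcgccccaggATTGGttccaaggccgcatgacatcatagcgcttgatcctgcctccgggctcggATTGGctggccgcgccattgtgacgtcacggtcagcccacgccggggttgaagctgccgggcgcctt
Fads2, chr19:10101454-10101753, − strand: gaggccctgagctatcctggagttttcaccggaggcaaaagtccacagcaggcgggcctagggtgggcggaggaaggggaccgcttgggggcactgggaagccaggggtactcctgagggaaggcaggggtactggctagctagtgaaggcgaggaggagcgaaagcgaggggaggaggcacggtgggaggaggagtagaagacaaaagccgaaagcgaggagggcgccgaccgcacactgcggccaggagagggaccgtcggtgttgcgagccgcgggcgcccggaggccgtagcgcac
Elovl6, chr3:129532136-129532435, + strand: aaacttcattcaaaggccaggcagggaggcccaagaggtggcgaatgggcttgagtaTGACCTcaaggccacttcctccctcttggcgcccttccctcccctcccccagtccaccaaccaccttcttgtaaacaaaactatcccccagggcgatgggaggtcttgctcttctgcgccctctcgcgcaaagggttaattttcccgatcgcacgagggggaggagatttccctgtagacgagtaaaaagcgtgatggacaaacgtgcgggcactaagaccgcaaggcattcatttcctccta
The Elovl5 window held 1 E-box, at −161 relative to the start site, and 2 CCAAT boxes on the other strand, at −71 and −17. The Elovl6 window held 1 nuclear receptor motif on the other strand, at −193, and the Fads2 window held none of these motifs. An E-box was found in 7.15% of the 32851 promoter windows of the mouse table, a CCAAT box in 37.4% and a nuclear receptor motif in 16.3%. The sterol regulatory element TCACNCCAC, found in 1.24% of all windows, was in none of the 7 windows of these 5 members. Scd1, Scd2, Fads1 and Elovl3 had no window in the set and were not searched. These matches describe letters in a window of 300 bases. The share of G and C was 57.7% in the Elovl5 window, 67.0% in that of Fads2 and 55.7% in that of Elovl6, against a median of 52.7% over all windows.

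Levels are given on the log2 scale relative to the 75th percentile of the probes of the same array, so that a level of 0 is that percentile and a difference of 1 is a doubling. Levels of different genes were read by different probes and were not set against each other. The 75th percentile of intensity ranged from 152.5 to 219.6 over the 16 arrays, 49.7 to 58.3% of probes were well above background, and no spot was saturated. The arrays lay on 2 slides, each of which held 8 mice and mice of all 3 groups. All 6 hepatocyte markers (Alb, Apoa1, Ttr, Cps1, Cyp2e1 and Tat) were well above background on every array. Of the 5 markers of exocrine pancreas, Ctrb1 and Amy2a5 were well above background on all 16 arrays, Pnlip on 1, and Cpa1 and Cela3b on none. The summed linear level of 5 neutrophil markers was 0.344 to 27.5 in PBS, 0.443 to 1.07 in LM and 0.451 to 26.7 in OM(HFD) mice, and that of 5 Kupffer cell markers was 26.2 to 136.1, 25.1 to 34.3 and 26.6 to 71.4 in the same order. Of 5 adipocyte markers the sum was 0.961 to 1.82, 1.23 to 10.8 and 1.08 to 1.63. Single mice made the wide ranges. PBS mouse 1 and OM(HFD) mouse 25 had the highest neutrophil and Kupffer cell sums, and the next neutrophil sums of their groups were 0.823 and 1.13. LM mouse 15 had the highest adipocyte sum, and the next was 2.11. Mouse 25 was also the highest OM(HFD) mouse in Scd1, Fads1, Fads2, Elovl2, Elovl5 and Elovl6 and the lowest in Elovl3. The part of these cells in any value below was not tested, and in whole liver a change in a cell type's number and in its RNA per cell cannot be told apart.

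Among the 9 genes, Elovl6 was the only member past an unadjusted p of 0.05 in limma in any comparison. Its mean was lower in OM(HFD) than in PBS mice, and it kept that direction on both slides. No member passed after adjustment over all genes, and the exact permutation test called none. The other 8 genes had group means close together relative to the spread between mice.

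Elovl6 lengthens palmitate to stearate, the substrate of Scd1. Its probe, at chr3:129337756-129337815 of mm9, was the only one for the gene. In PBS mice its level ran from 3.62 to 5.07 with a median of 4.58. In LM mice it was 4.70 and 4.89 on slide 1 and 3.99, 3.44 and 3.92 on slide 2. In OM(HFD) mice it was 4.44, 3.66 and 3.62 on slide 1 and 3.88 and 3.69 on slide 2. All 5 OM(HFD) values were thus under the PBS median, 4 of them close together, and the groups overlapped, since 2 PBS mice, at 3.62 and 4.17, lay below the highest OM(HFD) mouse. The mean was 3.86 ± 0.34 (SD, n = 5) in OM(HFD) and 4.50 ± 0.54 (SD, n = 6) in PBS mice. This difference was −0.64 ± 0.29 (SE) in log2, with a 95% confidence interval of −1.25 to −0.03. PBS mice were therefore 1.56-fold higher. Limma gave an unadjusted p of 0.0415, which did not survive adjustment over all genes, and the exact two-sided permutation test gave 0.0584. The log2 fold change was −0.83 on slide 1 and −0.47 on slide 2. The call rested on some mice and settings, since leaving out 1 mouse at a time gave −0.81 to −0.52 with limma p from 0.00816 to 0.0938, and 8 of these 16 fits were past 0.05, while the authors' processed values gave −0.58 with p = 0.0574. In LM mice the mean was 4.19 ± 0.60 (SD, n = 5). The log2 fold change against PBS mice was −0.31 (exact permutation p = 0.387), with 0.06 on slide 1 and −0.47 on slide 2, so that the 2 slides differed in sign. Between OM(HFD) and LM mice it was −0.33 (exact permutation p = 0.27), carried by slide 1 with −0.89, while slide 2 gave 0.00092.

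**Figure D1:**
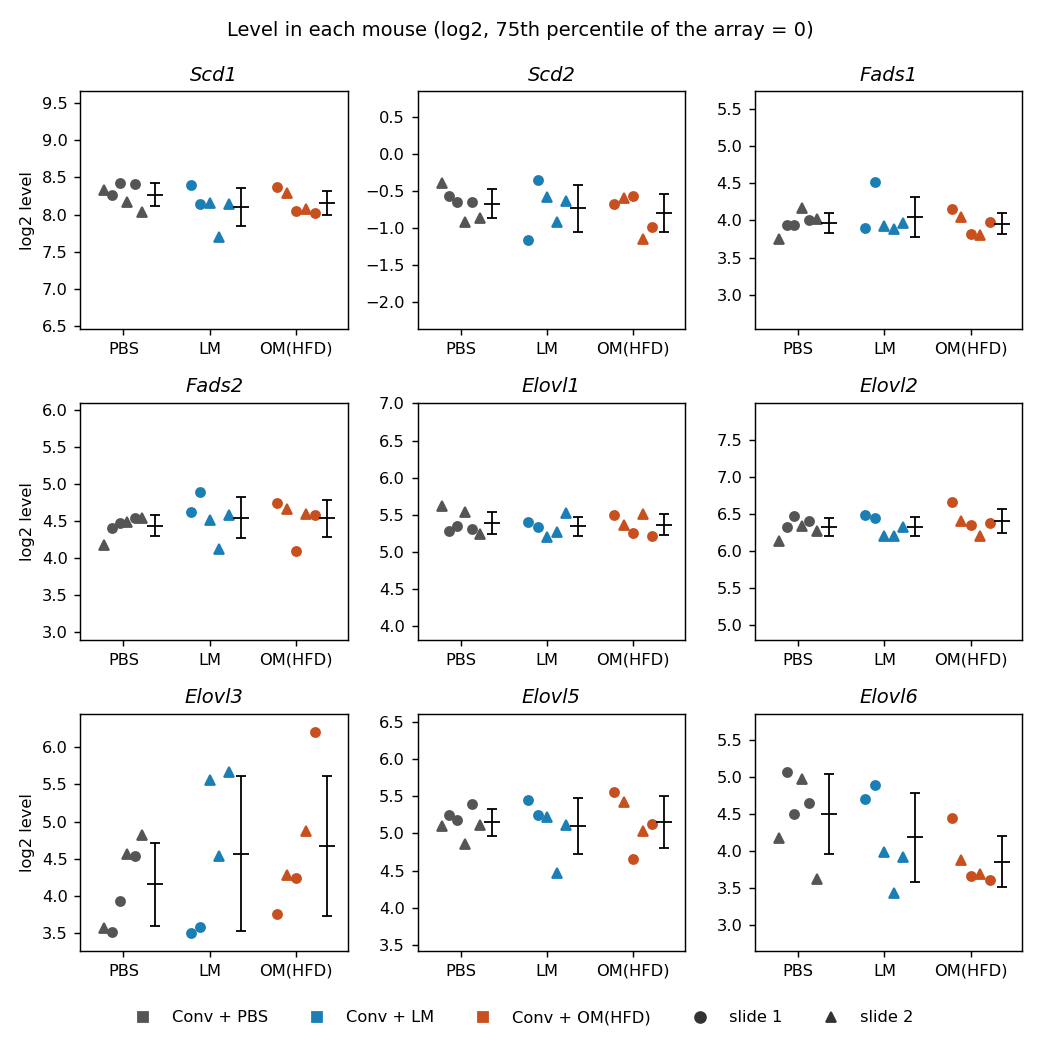
Level of each of the 9 genes in each of the 16 mice by group (x axis), on the log2 scale with the 75th percentile of the array at 0 (y axis, the same span of 3.2 in every panel), with circles for slide 1, triangles for slide 2 and the group mean ± SD in black. Elovl3 ran from 3.50 to 6.20 and Elovl6 from 3.44 to 5.07, while the other 7 genes spanned at most 2.12-fold and overlapped between groups.

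Elovl3 had the widest spread of the 9 genes, a spread that lay within the groups. Its probe was at chr19:46209325-46209384 of mm9. In PBS mice the level ran from 3.51 to 4.82 with a median of 4.23. In LM mice it was 3.50 and 3.58 on slide 1 and 5.57, 4.53 and 5.67 on slide 2. In OM(HFD) mice it was 3.75, 4.25 and 6.20 on slide 1 and 4.28 and 4.87 on slide 2. The highest mouse was 6.52-fold above the lowest, and the lowest mouse of each group was under 4. The 4 highest mice, at 6.20, 5.67, 5.57 and 4.87, belonged to the OM(HFD) and LM groups. The SD within groups was 0.85, above that of 96.5% of the genes tested, whose median was 0.24. The means were 4.15 ± 0.56 (SD, n = 6) in PBS, 4.57 ± 1.04 (SD, n = 5) in LM and 4.67 ± 0.94 (SD, n = 5) in OM(HFD) mice. Neither difference from PBS mice was larger than this spread, with log2 fold changes of 0.52 for OM(HFD) (95% confidence interval −0.50 to 1.53, exact permutation p = 0.307) and 0.41 for LM mice (−0.60 to 1.43, exact permutation p = 0.424). The first was 0.74 on slide 1 and 0.26 on slide 2, and the second was −0.46 on slide 1 and 0.94 on slide 2, so that its sign differed between the slides. Between OM(HFD) and LM mice the difference was 0.10 (exact permutation p = 0.897), and it was 1.20 on slide 1 and −0.68 on slide 2. Slide 2 was higher than slide 1 by 0.57 for Elovl3 and lower by 0.48 on the log2 scale for Elovl6 (slide 2 minus slide 1, −0.48).

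Scd1, the main stearoyl-CoA desaturase of the liver, makes oleate from stearate. Its level ran from 8.03 to 8.42 with a median of 8.29 in PBS mice. It was 8.40, 8.14, 8.15, 7.69 and 8.14 in the LM mice and 8.37, 8.04, 8.02, 8.29 and 8.08 in the OM(HFD) mice. The 3 groups overlapped, and a single LM mouse lay well below the rest. The log2 fold change was −0.11 for OM(HFD) vs. PBS mice (95% confidence interval −0.36 to 0.14, exact permutation p = 0.26) and −0.16 for LM vs. PBS mice (−0.42 to 0.09, exact permutation p = 0.216). Scd2, the isoform better known from brain, ran from −1.17 to −0.35 over all mice, with means of −0.67, −0.73 and −0.80 in PBS, LM and OM(HFD) mice. Its log2 fold changes were −0.13, −0.06 and −0.06 in the comparisons of OM(HFD) with PBS, LM with PBS and OM(HFD) with LM mice.

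The polyunsaturated branch showed group means that lay within 0.11 of each other for every gene. Fads1, the last desaturase on the way to arachidonic acid, had means of 3.97 ± 0.14, 4.04 ± 0.27 and 3.96 ± 0.15 (SD) in PBS, LM and OM(HFD) mice. Fads2, which carries out the first desaturation, had means of 4.44 ± 0.14, 4.55 ± 0.28 and 4.54 ± 0.25 (SD). Elovl5, which lengthens the products of Fads2, had means of 5.15 ± 0.18, 5.10 ± 0.37 and 5.16 ± 0.35 (SD), and its lowest mice, at 4.47 and 4.65, belonged to the LM and the OM(HFD) group. Elovl2, which acts on the longer polyunsaturated chains, had means of 6.32, 6.33 and 6.40 and an SD within groups of 0.14. Elovl1, an elongase of very long saturated chains, had means of 5.39, 5.34 and 5.37 and the same SD within groups to 2 decimals. Leaving Elovl3 and Elovl6 aside, the 95% confidence intervals of the other 7 genes reached from −0.45 to 0.38 for OM(HFD) vs. PBS mice, from −0.42 to 0.39 for LM vs. PBS mice and from −0.40 to 0.45 between the transplanted groups.

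Counted over the members, Elovl6 alone (1 of 9) passed an unadjusted limma p of 0.05 for OM(HFD) vs. PBS mice, where 3.25% of all genes tested passed. For LM vs. PBS mice 0 of 9 passed, against 3.88% of all genes, and for OM(HFD) vs. LM mice 0 passed, against 2.67%. The exact permutation test gave 0 of 9 in each, against 3.15%, 3.88% and 2.99% of all genes with a value on every array of both groups, and the methods' t-test gave 1, 0 and 0, against 2.98%, 3.66% and 2.87% of all genes, with none left after Benjamini-Hochberg adjustment. No member had groups that did not overlap, which held for 0.226%, 0.28% and 0.432% of all genes. After adjustment limma called 0 members and 0% of all genes in each comparison. In the same order, 5, 5 and 4 of the 9 genes had the lower mean in the first group, against 50.7%, 53.1% and 49% of all genes, and the median log2 fold change was −0.01, −0.04 and 0.02 over the 9 genes, against −0.0021, −0.01 and 0.0034 over all genes. The difference had the same sign on both slides for 5, 2 and 2 of the 9 genes. The comparisons share mice and are not independent.

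**Figure D2:**
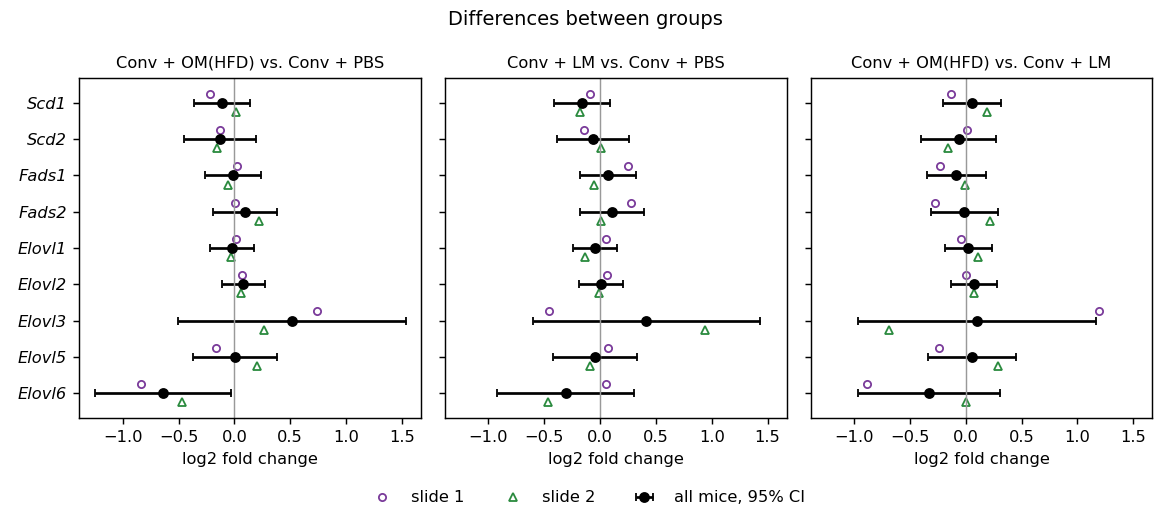
Log2 fold change (x axis) of each of the 9 genes (y axis) in the 3 comparisons, with the 95% confidence interval of limma over all mice in black and the differences within slide 1 (open circles) and slide 2 (open triangles). Only the interval of Elovl6 for OM(HFD) vs. PBS mice, −1.25 to −0.03, leaves out 0, and the 2 slides lie far apart for Elovl3 in the last panel, at 1.20 and −0.68.

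For the 5 members with more than 1 probe, the probes were compared. The 5 probes of Fads2 gave log2 fold changes of 0.11 to 0.20 for LM vs. PBS mice, all higher, but for OM(HFD) vs. PBS mice the brightest gave 0.10 and the other 4 lay between −0.13 and −0.0024. The 3 probes of Fads1 gave −0.01, −0.10 and 0.18 in the latter comparison, and their correlation with the brightest probe over mice was 0.49 and 0.58. The 2 Elovl1 probes that passed the filter gave −0.02 and 0.03 and correlated at 0.91, whereas the 2 Elovl5 probes that did gave 0.01 and −0.19 and correlated at 0.31. The second Scd1 probe is listed on the strand opposite to that of the first, and it gave −0.28 (limma unadjusted p = 0.13) and −0.32 (limma unadjusted p = 0.0909) for OM(HFD) and LM against PBS mice, with a correlation of 0.89 with the first. The remaining probes, 1 of Elovl1 and 1 of Elovl5, were well above background on 0 and 2 of the 16 arrays. A direction for Fads1, Fads2, Elovl1 or Elovl5 in the obese microbiota comparison thus depended on the probe.

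**Figure D3:**
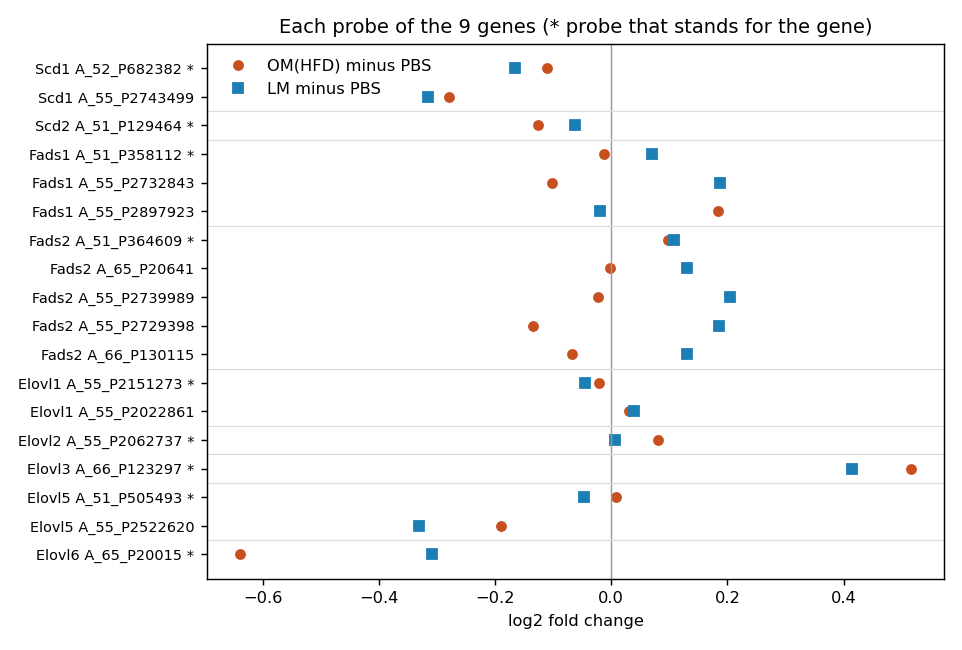
Log2 fold change against PBS mice (x axis) of each of the 18 probes of the 9 genes that passed the filter (y axis, named by gene and probe), for OM(HFD) (circles) and LM mice (squares), with an asterisk on the probe that stands for its gene. The 5 Fads2 probes lie above 0 with the lean microbiota and on both sides of 0 with the obese microbiota.

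Across mice, 25 of the 36 pairs of members had a positive correlation, and all 8 pairs that contain Elovl3 a negative one. The correlations were computed over the 16 mice on deviations from the group means, so that differences between groups do not enter, with 100000 permutations within groups and Benjamini-Hochberg adjustment over the 36 pairs. The median Pearson's r was 0.20, from −0.55 to 0.84, and 13 pairs had an unadjusted permutation p under 0.05 and 1 an adjusted p under 0.05. The negative sign of the Elovl3 pairs did not hold on both slides. On slide 2 alone r was positive with Fads2 (0.90), Fads1 (0.46), Elovl5 (0.37), Elovl2 (0.34), Elovl6 (0.17) and Scd1 (0.13). It was negative there with Elovl1 (−0.15) and Scd2 (−0.36). Fads2 with Elovl3 was also positive on slide 1 (0.16), against −0.02 over all mice.

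The pair that passed was Scd1 with Elovl5, with r = 0.84 (permutation p = 0.00074, adjusted 0.0266) and Spearman's rho = 0.80 (adjusted permutation p = 0.0536). The relation gave r = 0.82 without the 2 mice farthest from the median of Scd1, and 0.72 and 0.84 within slide 1 and slide 2 of 8 mice each. Within PBS, LM and OM(HFD) mice it was 0.54, 0.98 and 0.85. Over the 20327 genes with a value on every array, Elovl5 had the third highest r with Scd1, and Scd1 the third highest with Elovl5. Averaging the probes of each gene gave 0.66. These genes lie on different chromosomes, 19 and 9.

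Fads1 and Fads2, the desaturases of the polyunsaturated branch, had r = 0.72 (permutation p = 0.0094, adjusted 0.0846) and rho = 0.69, with 0.69 without the 2 mice farthest from the median and 0.74 and 0.64 within the slides. Scd1 and Scd2 had r = 0.23 (permutation p = 0.494, adjusted 0.745), with −0.37 on slide 1 and 0.81 on slide 2. The difference between these pairs was not tested. Fads2 with Elovl5, successive enzymes of the branch, had r = 0.77 (permutation p = 0.00743, adjusted 0.0846), but 0.38 without the 2 mice farthest from the median of Fads2 and −0.09 with the mean of all probes, so that this relation rests on those mice and on the probe. Elovl2 with Elovl5 gave r = 0.59 (permutation p = 0.0339, adjusted 0.13), and 0.06 with the mean of all probes.

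Scd1 with Elovl6, which act in turn on saturated chains, had r = 0.65 (permutation p = 0.0126, adjusted 0.0905), and 0.36 without the 2 mice farthest from the median of Scd1. Scd1 with Fads1 had r = 0.13 (permutation p = 0.627, adjusted 0.796). The smallest r was that of Elovl3 with Elovl6, at −0.55 (permutation p = 0.0449, adjusted 0.13), with −0.65 on slide 1 and 0.17 on slide 2, so the sign did not hold on both slides. Scd1 with Elovl3 gave r = −0.42 (permutation p = 0.181, adjusted 0.407), and 0.13 on slide 2. Elovl2 with Elovl3 gave r = −0.42 (permutation p = 0.154, adjusted 0.368), and 0.34 on slide 2. In all, 20 of the 36 pairs had the same sign on both slides.

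**Figure D4:**
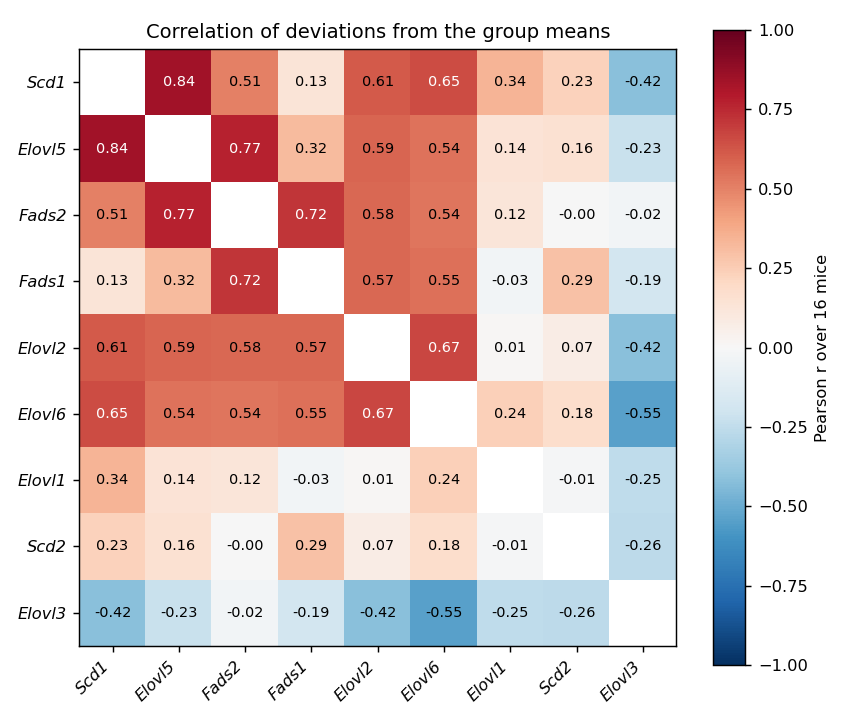
Pearson's r of each pair of the 9 genes over 16 mice, on deviations from the group means, with the value in each cell and a colour scale from −1 (blue) to 1 (red). Scd1, Elovl5, Fads2, Fads1, Elovl2 and Elovl6 form a block of positive values from 0.13 to 0.84, and the row of Elovl3 holds negative values from −0.55 to −0.02. Within PBS mice alone the block held negative values for Scd1 with Fads1 (−0.44), Scd1 with Fads2 (−0.22) and Fads1 with Elovl5 (−0.38). Its other pairs were positive there, from 0.01 to 0.80. On slide 2 alone most values of the Elovl3 row were positive.

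The members were set against Srebf1, Mlxipl, Cyp4a14, Arntl and Nr1d1, 45 relations adjusted together. Cyp4a14, a fatty acid hydroxylase, is a target of PPARα that rises in fasting, and its probe may read its close relatives. Arntl encodes the clock activator BMAL1, and Nr1d1 the clock repressor REV-ERBα that acts against Arntl. Of the 45 relations, 10 had an unadjusted permutation p under 0.05 and 3 an adjusted p under 0.05, and these 3 were relations of Elovl3.

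Elovl3 was positively correlated with Arntl, with r = 0.91 (permutation p = 1e-05, the smallest that these permutations can give, adjusted 0.00045) and rho = 0.93 (adjusted permutation p = 0.00045). It was 0.85 without the 2 mice farthest from the median of Elovl3, 0.90 and 0.87 on the 2 slides, and 0.98, 0.85 and 0.97 within PBS, LM and OM(HFD) mice. With Cyp4a14 the relation had r = 0.76 (permutation p = 0.00029, adjusted 0.00652) and rho = 0.84, with 0.78 without those 2 mice and 0.70 and 0.75 on the slides. With Srebf1 it ran the other way, with r = −0.70 (permutation p = 0.00165, adjusted 0.0247) and rho = −0.76, with −0.59 without those 2 mice and −0.76 and −0.63 on the slides. With Nr1d1 it was −0.67 (permutation p = 0.00766, adjusted 0.0862). On single mice, the OM(HFD) mouse highest in Elovl3, at 6.20, was also the highest of all mice in Arntl, at 0.74, and the lowest in Nr1d1, at −2.07. The LM mouse lowest in Elovl3, at 3.50, was the lowest in Arntl, at −2.73. Neither Arntl nor Cyp4a14 nor Srebf1 differed between the groups at an unadjusted limma p under 0.05. The hour at which each mouse was killed is not given in the sources used here, and its part in these values was not tested.

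**Figure D5:**
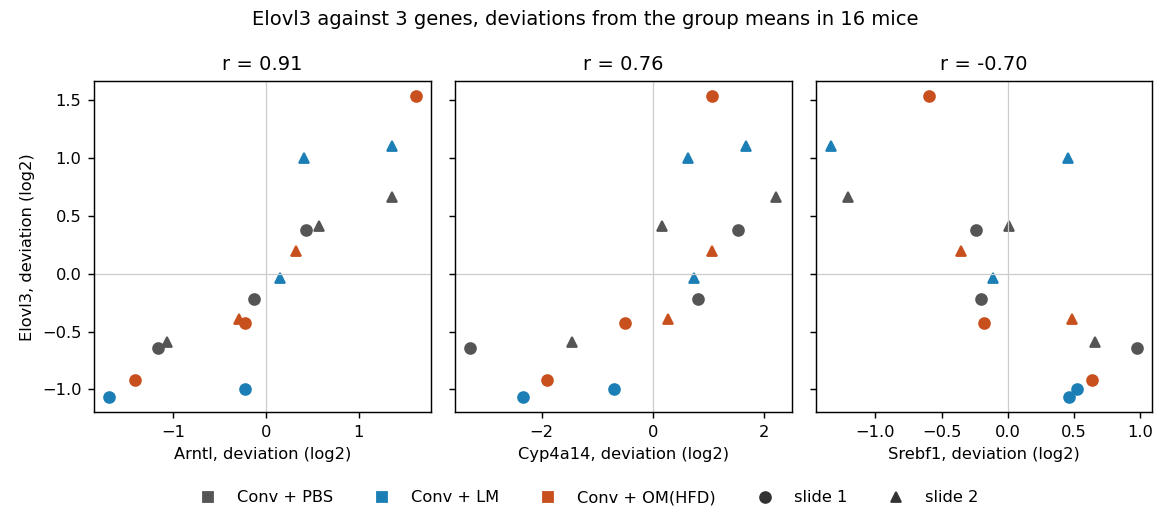
Deviation of Elovl3 from its group mean (y axis, log2) against that of Arntl, Cyp4a14 and Srebf1 (x axes, log2) in the 16 mice, with colours for the groups, circles for slide 1 and triangles for slide 2. The points rise with Arntl (r = 0.91) and Cyp4a14 (r = 0.76) and fall with Srebf1 (r = −0.70), with mice of all 3 groups along each trend.

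Elovl6 had the opposite tendencies. Its r was −0.66 with Cyp4a14 (permutation p = 0.0145, adjusted 0.131), −0.57 with Arntl (permutation p = 0.0336, adjusted 0.189) and 0.63 with Srebf1 (permutation p = 0.0224, adjusted 0.168), none of which passed the adjusted threshold. They were weaker on slide 2, with −0.71 on slide 1 and −0.38 on slide 2 for Cyp4a14, −0.68 and −0.09 for Arntl, and 0.92 and 0.36 for Srebf1. With Mlxipl the r of Elovl6 was 0.28 (permutation p = 0.349, adjusted 0.684). Scd1 gave −0.55 with Arntl (permutation p = 0.0459, adjusted 0.225) and 0.43 with Srebf1 (permutation p = 0.141, adjusted 0.49). Fads1 and Fads2 had their highest r with Mlxipl, at 0.60 (permutation p = 0.0282, adjusted 0.181) and 0.52 (permutation p = 0.0499, adjusted 0.225). Against 2 measures of the arrays, the 75th percentile of intensity and the share of probes well above background, 0 of 18 relations passed after adjustment, and 2 had an unadjusted permutation p under 0.05, those of Elovl2 (r = 0.58) and Elovl3 (r = −0.51) with the 75th percentile. The r with the 75th percentile, by which levels were scaled, was also positive for Scd1 (0.49), Elovl5 (0.42), Scd2 (0.37), Fads2 (0.20), Fads1 (0.17) and Elovl1 (0.08). Within PBS mice it was 0.73 for Scd1 and 0.88 for Elovl5. Its part in the correlations between members was not tested. Elovl6 had r = 0.49 with the 75th percentile (permutation p = 0.0865, adjusted 0.303), with 0.89 on slide 1 and −0.29 on slide 2. On slide 1 that percentile was 204.3 to 219.6 on the PBS arrays and 164.8 to 204.5 on the OM(HFD) arrays, and its part in the Elovl6 difference was not tested.

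The genes most like each member were sought over 20327 genes on the same deviations, and as the highest of many values they are a description. For Elovl3 they were Sema6b (r = 0.94), a transcript named only by an Ensembl identifier (0.93) and Arntl (0.91). For Elovl6 they were Tubd1 (0.92), Pan2 (0.90) and Sdr39u1 (0.89), with Fasn, the fatty acid synthase that supplies its substrate, in rank 5 (0.89). For Scd1 they were Gm13056 (0.87), Zc3hav1 (0.85) and Elovl5 (0.84), and for Elovl5 they were 3110052M02Rik (0.87), Paox (0.86) and Scd1 (0.84). The highest were Gm26910 (0.91), BB114402 (0.91) and Arhgap17 (0.86) for Fads1 and Dennd6b (0.88), Josd2 (0.88) and U2af1 (0.85) for Fads2. They were Csf2rb (0.86), Gbp8 (0.84) and Tes (0.84) for Elovl1, Adgrg3 (0.82), Kcnk6 (0.80) and Tbc1d1 (0.79) for Scd2, and for Elovl2 a transcript named only by its position (0.91), Rdh5 (0.86) and Prpf40b (0.86).

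The pathway around the members was read from lists of genes. These lists were chosen with earlier results of these data known, so counts in them are a description and not a test. No member's direct partner in the elongation cycle passed an unadjusted p of 0.05 in limma (0 of 6 in each comparison, among them Hsd17b12, the ketoreductase, and Tecr, the last enzyme of the cycle), and neither did any of the 7 other desaturases and elongases above background, such as Scd3 and Fads3. Of the 4 electron donors of desaturases, 1 passed the exact permutation test for OM(HFD) vs. PBS mice, against 3.15% of all genes. It was the reductase Cyb5r3, lower in OM(HFD) mice (log2 fold change −0.24, exact permutation p = 0.026). Upstream of Elovl6, 4 of 7 genes of substrate supply were lower at an unadjusted limma p under 0.05 in this comparison, namely the fatty acid synthase Fasn (log2 fold change −0.76), the acetyl-CoA carboxylases Acacb (−0.58) and Acaca (−0.54) and the acetyl-CoA synthetase Acss2 (−0.53), where 3.25% of all genes passed in either direction. The exact permutation test called 3 of the 7, Acacb (p = 0.00216), Acss2 (p = 0.0173) and Acly (p = 0.0411), against 3.15% of all genes. In LM vs. PBS mice 1 of 7 was lower by both tests, against 3.88% of all genes by each, the malic enzyme Me1 (−0.42, exact permutation p = 0.00866). Their median over all 7 was −0.54 for OM(HFD) vs. PBS mice and −0.32 for LM vs. PBS mice, in which all 7 means were lower than in PBS mice, against −0.0021 and −0.01 over all genes. Between OM(HFD) and LM mice it was −0.22, and 0 of 7 passed either test. Of 16 regulators, 2, 1 and 2 passed an unadjusted 0.05 by both tests for OM(HFD) vs. PBS, LM vs. PBS and OM(HFD) vs. LM mice. Of all genes 3.25%, 3.88% and 2.67% passed in limma and 3.15%, 3.88% and 2.99% by the exact test. Insig1 holds SREBP in the endoplasmic reticulum and is itself its target. It was lower than in PBS mice with both microbiota (−0.32 and −0.30, exact permutation p = 0.00866 and 0.0281). Thrsp, an activator of lipogenesis, was lower in OM(HFD) than in PBS mice (−0.89, exact permutation p = 0.0281). It was also lower in OM(HFD) than in LM mice (−0.998, exact permutation p = 0.0397). LM mice differed from PBS mice in Thrsp by 0.11 (exact permutation p = 0.779). Mbtps1, a protease that activates SREBP, was lower in OM(HFD) than in LM mice (−0.26, exact permutation p = 0.0159). So was the clock gene Per2 (−0.35, exact permutation p = 0.0476), 1 of 11 clock genes, against 2.99% of all genes. Srebf1, Mlxipl, Insig2, Cyp4a14, Arntl and Nr1d1 passed in no comparison in limma, nor did any of the 8 genes of acyl-CoA synthesis and use or of the 8 fasting targets. By the exact permutation test, Gpam, the first acyltransferase of glycerolipid synthesis (−0.18, exact permutation p = 0.0368), and Per2 (−0.26, exact permutation p = 0.0433) were also under 0.05 for OM(HFD) vs. PBS mice. They were 1 of 8 and 1 of 11 genes of their lists, against 3.15% of all genes. No gene of these lists passed after adjustment over all genes.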

How the data were processed

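Liver RNA of 16 mice (PBS, 6, LM, 5, OM(HFD), 5) was labelled and hybridized to 1-colour Agilent microarrays, one array per mouse, and groups were taken from the labels. The authors extracted the signals with Agilent Feature Extraction 10.10.1.1, and the deposited intensity of each spot is corrected for background and not normalized between arrays. Set against these files, the log2 values that the authors also deposited were close to quantile normalized log2 values of the median spot intensity (median absolute difference 0.00634), without matching them exactly. Probe positions are those of the files, on mm9, with no annotation of that build used here.

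Control spots and spots flagged as outliers were left out, spots of a probe were averaged, and log2 values were scaled to the 75th percentile of their array. This scaling assumes that most genes are unchanged. Probes well above background on at least 5 arrays were kept (30663 probes, 20403 genes), and the probe with the highest mean stood for a gene. The 3 groups were compared in 1 fit by limma 3.58.1 (lmFit, then eBayes, R 4.3.3, with the data.table package, version 1.17.8), with Benjamini-Hochberg adjustment over all genes. Exact two-sided permutation tests of single genes cannot go below 0.00216 with groups of 5 and 6 mice or 0.00794 with groups of 5. Correlations used numpy 2.4.6 and scipy 1.17.1 in Python 3.11.15, and plots matplotlib 3.10.9. The members and all gene lists were chosen with earlier results of these data known. Named genes are all members, list genes with an unadjusted limma p under 0.05 in any comparison, Srebf1, Mlxipl, Insig1, Insig2, Fasn, Cyp4a14, Arntl and Nr1d1, 6 pairs and the 3 pairs of largest and of smallest r, and the 3 genes most like each member. Acly and Gpam were named after their exact permutation p was seen, and Hsd17b12, Tecr, Scd3 and Fads3 as examples of their lists.

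Alternatives were quantile normalization, normexp correction of the background (offset 50), the authors' values, the slide as a block, the mean of all probes, no filter or all 16 arrays, only the mice of both groups, the methods' t-test, each slide alone and slide means removed (for correlations), and leaving out each mouse. Tested on simulated data with 200 genes changed by 1 on the log2 scale, the comparison of OM(HFD) with PBS mice recovered 150 (75%) among 20327 genes, and 6 unchanged genes were called. No member differed by as much in that comparison, the largest difference being −0.64 for Elovl6, so this share does not carry over to the members.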

Additional observations from a re-analysis of the deposited data

Results flagged for a closer look

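Of 27 sets of values (9 genes in 3 groups), 2 held a mouse whose gap to its nearest neighbour was large against the range of the group, by Dixon's test at the 95% level, where chance gives about 1 in 20. For Fads1, 1 LM mouse on slide 1 lay at 4.52, above the next at 3.97, and the gap was 0.87 of the range. For Fads2, 1 OM(HFD) mouse on slide 1 lay at 4.10, below the next at 4.59, and the gap was 0.756 of the range.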

How the results depend on the processing

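The number of mice limits every value here. Elovl6 in OM(HFD) vs. PBS mice stayed lower in each of the 9 alternatives and without each mouse. The count of members at an unadjusted limma p under 0.05 in that comparison was 1 and became 0 with quantile normalization (Elovl6 −0.63) and with the authors' values (Elovl6 −0.58), and it was 0 to 1 without single mice, namely 0 without PBS mouse 2, 3, 4 or 5 and without OM(HFD) mouse 26, 28, 29 or 30. In the other comparisons the count was 0 throughout. The fold changes that changed sign in these settings, in which both slides are fitted together, were at most 0.28 in size, with limma p of 0.46 or more, and the cause was not tested.

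With normexp, OM(HFD) vs. LM became −0.012 for Scd1, 0.058 for Fads2 and −0.021 for Elovl1. With the authors' values these were −0.016, 0.082 and −0.011. For OM(HFD) vs. PBS, Fads1 became 0.00302 with quantile normalization and 0.024 with the authors' values. With the mean of all probes, which adds dimmer probes, this comparison gave 0.023 for Fads1, −0.026 for Fads2, 0.00469 for Elovl1 and −0.090 for Elovl5, and with the slide as a block Elovl5 gave −0.010. Without single mice, OM(HFD) vs. PBS ran from −0.060 to 0.027 for Fads1, from −0.057 to 0.026 for Elovl1 and from −0.091 to 0.13 for Elovl5. LM vs. PBS ran from −0.16 to 0.047 for Scd2, from −0.049 to 0.11 for Fads1, from −0.091 to 0.0022 for Elovl1, from −0.033 to 0.040 for Elovl2 and from −0.13 to 0.11 for Elovl5. OM(HFD) vs. LM ran from −0.049 to 0.13 for Scd1, from −0.17 to 0.031 for Scd2, from −0.13 to 0.037 for Fads1, from −0.12 to 0.10 for Fads2, from −0.013 to 0.070 for Elovl1, from −0.28 to 0.38 for Elovl3 and from −0.10 to 0.18 for Elovl5.

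Of the 45 relations with regulators, 3 passed after adjustment with all mice and 2 to 5 did without single mice, 5 of them without OM(HFD) mouse 25. With slide 1 alone or slide 2 alone 0 passed, but groups of 2 or 3 mice allow too few permutations for this count to bear on the relations. On slide 1 alone r was −0.37 for Scd1 with Scd2 and −0.15 for Scd1 with Fads1, and on slide 2 alone it was 0.13 for Scd1 with Elovl3, 0.34 for Elovl2 with Elovl3 and 0.17 for Elovl3 with Elovl6. With the mean of all probes Fads2 with Elovl5 gave −0.090. Scd1 with Fads1 ran from −0.051 to 0.28 without single mice. The median r over the pairs, 0.20, had a jackknife standard error of 0.21. No paired analysis was possible because the groups share no mouse numbers.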
